A study of Mus musculus with 39 samples.

Results

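Hoxc13, Foxn1, Msx2, Dlx3, Edar, Tchh, Padi3, Krt71, Krt25 and Krt27 are 10 mouse genes that control or build the hair follicle, and they were followed across 39 Affymetrix arrays of breast tissue, masses, ventral tumours and normal mammary gland. They are 10 of the 18194 genes named on the arrays. They were picked by name, and each was represented by its probe set with the highest mean over the 39 arrays. The first 4 encode transcription factors, Edar a receptor, and the other 5 proteins of the hair shaft or its sheath, called the structural genes here. Padi3 among these is an enzyme, kept under that name for brevity. Krt71, Krt25 and Krt27 are keratins of the inner root sheath rather than of the shaft itself.

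Sleeping Beauty, in the title of the series, is a mobile DNA element used to mutate genes by insertion. Genotypes are spelled here as in the labels. Quadruple animals (SB/Tg/K5Cre/Bcat) gave 19 breast arrays from 15 animals. Triple K5Cre animals (SB/Tg/k5Cre) gave 8 breast arrays from 8 animals, and triple Bcat animals (SB/Tg/Bcat) gave 3 breast arrays from 2 animals. A further 2 arrays held masses labelled breast, called the masses here, with titles that differ in their last number and the genotype bcat +/-. They were taken as 2 animals from these titles, which the labels do not state. Another 3 arrays held ventral tumours of 1 Bcat +/- animal, so their spread is that within 1 mouse. The 4 normal mammary glands came from 4 animals that carried SB and Tg too: 1 triple Bcat (titled MG-Tbc-139), 1 quadruple (MGQ440) and 2 triple K5Cre (MGT627 and MGT635). No gland is labelled as wild type or as Bcat +/-. All 5 arrays of the masses and ventral tumours, and no others, carry C57 in their titles. The labels do not say what it stands for, so whatever it marks cannot be told apart from those groups. No age or strain is stated. The labels do not say whether the quadruple and triple breast samples are tumours, and do not say which mice were littermates.

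A hair is made by matrix cells at the base of the follicle, which differentiate into the shaft and the inner root sheath around it. Hoxc13, Foxn1, Msx2 and Dlx3 are needed in mice for normal shaft differentiation, and Edar, the ectodysplasin receptor, is needed for the first follicles to form and also acts in the mammary gland. Trichohyalin, the product of Tchh, fills the inner root sheath and the medulla, and Padi3 converts its arginines to citrullines before it is cross-linked to keratins. Normal mammary ducts make no hair, but mammary glands and follicles are both appendages of the embryonic skin.

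The promoters of the keratin genes and of Padi3 are shown. Krt25 had the widest range of the 10 genes over the arrays, and Krt27 and Krt71 are keratins of the same sheath. Padi3 is the gene that passed the test below. RefSeq start sites of build GRCm38.p6 were available for 8 of the 10 genes (not Hoxc13 and Dlx3). Each line holds the 250 bases before the start, on the strand of the gene, with the TATA box TATAAA and the homeobox core TAATT in capitals on either strand (overlapping matches read as TAATTA). Krt25 (chr11:99322952-99323201) and Krt27 (chr11:99351119-99351368) lie close together on the minus strand. Krt71 (chr15:101743098-101743347) and Padi3 (chr4:140810649-140810898) are also on the minus strand.
Krt25: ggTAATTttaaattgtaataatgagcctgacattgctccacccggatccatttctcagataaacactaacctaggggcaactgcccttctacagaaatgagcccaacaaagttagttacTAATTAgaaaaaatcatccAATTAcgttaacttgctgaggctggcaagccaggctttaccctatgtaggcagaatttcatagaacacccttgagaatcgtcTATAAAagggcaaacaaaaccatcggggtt
Krt27: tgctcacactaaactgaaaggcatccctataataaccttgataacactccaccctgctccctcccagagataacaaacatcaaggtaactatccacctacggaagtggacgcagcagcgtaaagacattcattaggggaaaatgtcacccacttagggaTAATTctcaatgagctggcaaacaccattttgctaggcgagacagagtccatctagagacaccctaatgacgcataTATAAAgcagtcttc
Krt71: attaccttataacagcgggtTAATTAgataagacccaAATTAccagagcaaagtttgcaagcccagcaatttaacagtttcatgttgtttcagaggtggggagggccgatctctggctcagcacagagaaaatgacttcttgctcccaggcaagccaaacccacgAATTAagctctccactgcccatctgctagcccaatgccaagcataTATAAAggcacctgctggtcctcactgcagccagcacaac
Padi3: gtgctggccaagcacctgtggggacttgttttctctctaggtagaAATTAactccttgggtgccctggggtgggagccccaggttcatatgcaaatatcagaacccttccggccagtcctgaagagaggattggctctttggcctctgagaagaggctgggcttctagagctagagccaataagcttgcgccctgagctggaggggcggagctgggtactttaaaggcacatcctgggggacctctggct
TATAAA was in 3 of the 8 promoters, those of Krt25, Krt27 and Krt71, where it began at positions -30, -15 and -40 from the start. It was in 12.4% of 32851 mouse promoters of the same length. TAATT was in 6 of the 8 (all but Tchh and Edar) and in 25.0% of all promoters. ACGC, the core that Foxn1 binds, was in 3 of the 8 (Edar, Krt27 and Msx2) and in 49.8% of all. CTTTGA, the core for Lef1 and Tcf factors, was in 2 of the 8 (Edar and Tchh) and in 13.8% of all. The element described for HOXC13 in human hair keratin genes (TTTAT or TTAAT, any base, then a pair of purines) was in 2 of the 8, Krt25 and Krt71, and in 17.2% of all. These matches are of letters in a 250-base window only.

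The deposited values are log2 expression values from RMA, so a difference of 1 is a doubling. Array medians lay between 5.10 and 5.27. Means of the 10 genes over the 39 arrays ran from 5.15 (Foxn1) to 8.07 (Tchh), which is from percentile 32.6 to percentile 69.7 of all genes. The luminal keratin Krt8 stood between 10.39 and 14.24 on every array. The basal keratin Krt5 was lowest, at 5.74, on the triple K5Cre breast array titled T627. Because these are whole tissues, fewer cells of a type and less RNA per cell cannot be told apart. Precision is limited by how few arrays some groups have.

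The first question is whether the hair genes differ from normal gland in the 5 breast and tumour groups, which share the same 4 gland arrays. Padi3 was the only member that passed, and it was higher in the masses and in the ventral tumours. In limma with Benjamini-Hochberg adjustment over all genes, 1 of the 10 passed in the masses and 1 in the ventral tumours, where 7.28% of all genes passed in the masses (2.60% higher and 4.68% lower) and 4.03% in the ventral tumours (0.813% higher and 3.22% lower). None of the 10 passed in quadruple breast, where 15.4% of all genes did (5.70% higher and 9.66% lower). None passed in triple K5Cre breast (17.2% of all genes, 7.44% higher and 9.79% lower) or triple Bcat breast (7.12% of all genes, 1.74% higher and 5.38% lower). Among only 10 genes, 1 call is near the share of all genes, so it says something of Padi3 and not of the 10 together. At an unadjusted p under 0.05 the counts were 3 of 10 in quadruple breast (27.8% of all genes), 0 in triple K5Cre (29.5%) and 3 in triple Bcat breast (22.1%), 3 in the masses (21.2%) and 2 in the ventral tumours (18.7%). Most differences, passing or not, were positive: 9 of 10 in quadruple, 8 in triple K5Cre, 9 in triple Bcat, 8 in the masses and 8 in the ventral tumours. The median of the 10 differences was 1.01, 0.47, 1.68, 1.61 and 1.73 in that order, where the median of all genes lay between -0.011 and 0.023. The 5 sets of differences are not independent, because each subtracts the same gland mean.

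**Figure D1:**
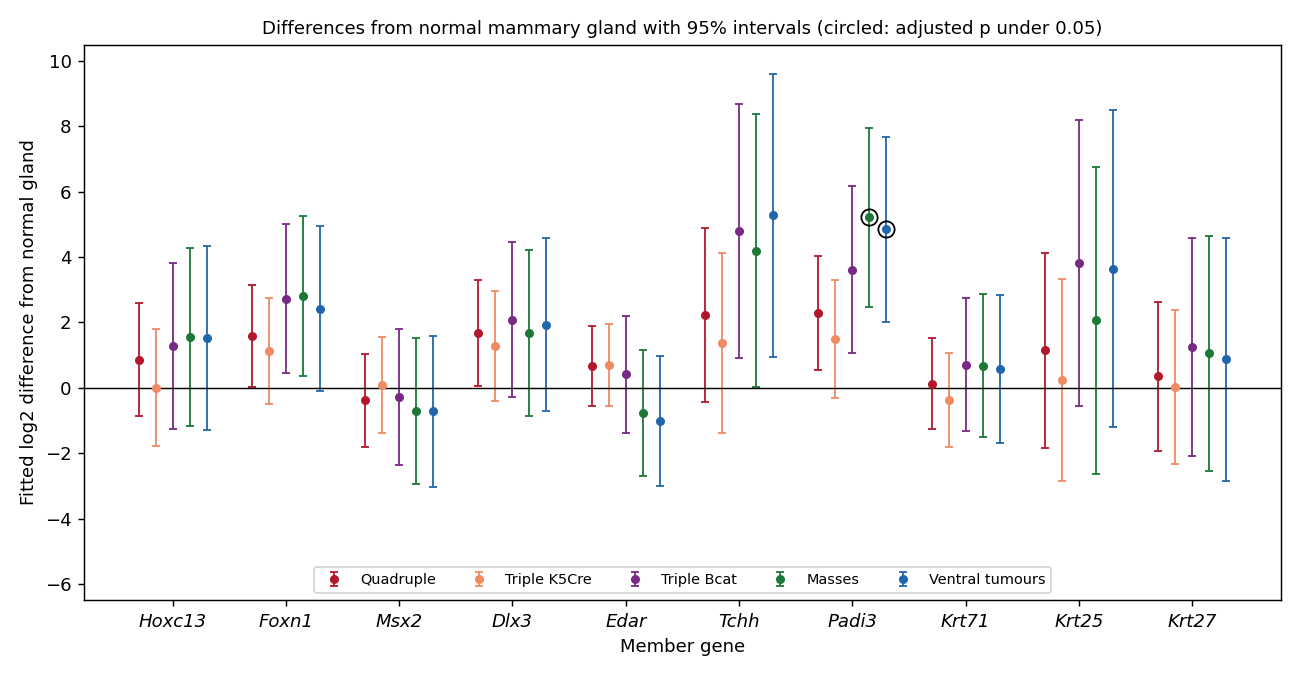
Fitted log2 difference of each gene from normal gland (points) with 95% intervals (bars) in the 5 breast and tumour groups, from limma with the animal as a random block. The circled points are Padi3 in the masses (5.21) and in the ventral tumours (4.85), and the intervals of Tchh, Krt25 and Krt27 are the widest.

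Padi3, the deiminase that modifies trichohyalin, had values of 9.42 and 9.12 in the masses, against 5.88, 3.07, 3.70 and 3.56 in the glands titled MG-Tbc-139, MGQ440, MGT627 and MGT635. The ventral tumours had 8.77, 8.76 and 9.20. All 5 arrays lay above every gland, by more than 2 log2 units. The fitted difference was 5.21 in the masses (SE 1.35, adjusted p = 0.0143), a 37.1-fold difference. It was 4.85 in the ventral tumours (SE 1.40, adjusted p = 0.0408), a 28.9-fold difference. Both SEs use a spread shared by all groups, where the SD was 0.21 within the masses and 0.25 within the ventral tumours. Triple Bcat breast had 8.17, 7.18 and 7.51, also above every gland, and its difference of 3.62 (SE 1.25) had an adjusted p of 0.0720. Quadruple breast ran from 3.92 through a median of 5.66 to 9.96, with 9 of 19 arrays above every gland, and its difference of 2.29 (SE 0.86) had an adjusted p of 0.0657. Triple K5Cre breast ran from 4.30 through 5.43 to 7.04, with 3 of 8 arrays above every gland (difference 1.49, adjusted p = 0.268). With the groups ordered by mean, only 1 pair of neighbours among all 10 genes had ranges that did not overlap, in Padi3. There the ventral tumours ran from 8.76 to 9.20 and triple Bcat breast from 7.18 to 8.17. These are 3 arrays of 1 animal and 3 arrays of 2 animals, and the share of all genes with such a gap was not counted.

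The call for Padi3 depends on few arrays and, in the masses, assumes that the 2 arrays are of 2 animals. In the masses it was lost without either array, in fits that leave 1 array there. Fewer of all genes passed in those fits too. In the ventral tumours 4.03% of all genes passed with all arrays. The call there was lost when any 1 tumour was left out (adjusted p from 0.0637 to 0.0787), where 2.51% to 2.89% of all genes passed. It was lost when any gland other than MG-Tbc-139 was left out (0.0927 to 0.100), where 1.43% to 2.56% passed. The call was lost too when the 3 tumours were averaged as the 1 animal they came from, which leaves 1 value in the group. Without MG-Tbc-139 it was kept in both, and Padi3 then also passed in quadruple (difference 2.86, adjusted p = 0.0420) and triple Bcat breast (4.19, adjusted p = 0.0477). That gland was the highest of the 4 in Padi3, so leaving it out raises the differences by itself. Epidermal genes also had higher values in the masses and ventral tumours than in the glands. The mean of 17 genes of the skin surface (keratins such as Krt1 and envelope proteins such as loricrin) was 10.49 ± 1.5 in the masses and 11.36 ± 0.57 in the ventral tumours, against 5.11 ± 1.56 in the glands (SD, n = 2, 3 and 4). Its 17 genes were all above the gland in both fits, with 0 passing. On single arrays of other groups Padi3 and the epidermal mean could part. Q648-1, the highest in Padi3 (9.96), had an epidermal mean of 6.76, and T856 had 11.46 with Padi3 at 4.78. Fat and muscle markers were lower in the masses and ventral tumours than in the glands. The mean of 10 adipocyte genes was 6.06 ± 0.46 in the masses and 6.18 ± 0.17 in the ventral tumours, against 11.95 ± 0.19 in the glands, and 8 and 7 of the 10 passed as lower. The mean of 10 skeletal muscle genes was 4.88 ± 0.18 in the masses and 7.24 ± 2.29 in the ventral tumours, against 11.74 ± 0.71 in the glands, with 9 and 1 of 10 lower. The part of these other tissues in the Padi3 difference was not tested.

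Tchh, the gene of trichohyalin, had the largest single difference, but it did not pass. The ventral tumours had 10.88, 11.52 and 10.55, triple Bcat breast 10.88, 10.12 and 10.40, and the masses 8.71 and 11.09. The glands had 9.89 (MG-Tbc-139), 4.59, 4.24 and 4.43, so that 1 gland lay above the lower of the masses and less than 1 unit below the lowest ventral tumour. All ventral and triple Bcat arrays were above every gland, and 1 of the 2 masses was. The differences were 5.28 in the ventral tumours (SE 2.13, adjusted p = 0.158), 4.80 in triple Bcat breast (SE 1.91, adjusted p = 0.124) and 4.19 in the masses (SE 2.06, adjusted p = 0.235). Quadruple breast ran from 3.98 through 8.11 to 12.82 and triple K5Cre breast from 4.83 through 6.0 to 11.17. In these groups 5 of 19 and 1 of 8 arrays exceeded every gland, while 17 of 19 and 8 of 8 exceeded the 3 glands other than MG-Tbc-139. Without that gland, the highest in Tchh, the triple Bcat difference was 6.12 (adjusted p = 0.0506), a rise that its removal brings by itself. The epidermal mean in triple Bcat breast was 10.31 ± 1.91 (SD, n = 3), against 5.11 ± 1.56 in the glands (n = 4), and its part in these differences was not tested either.

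Krt25, Krt27 and Krt71, which form the filaments of the inner root sheath, split most groups into high and low arrays. Krt25 was 8.49, 7.83 and 10.67 in triple Bcat breast, 4.05 and 10.34 in the masses and 8.82, 10.64 and 6.86 in the ventral tumours. The glands had 10.34 (MG-Tbc-139), 3.30, 3.78 and 3.63. Both masses and glands thus held arrays near 4 and arrays above 10. Quadruple breast ran from 3.65 through 6.40 to 12.82, and triple K5Cre breast from 3.55 through 4.34 to 8.42. Krt27 followed, with 4.56 and 9.07 in the masses and 5.44, 9.11 and 5.34 in the ventral tumours, against 9.65, 4.94, 4.52 and 4.28 in the glands. Krt71 had the narrowest range of the 3 in each group, with a quadruple median of 5.75 against a gland median of 5.44. The fitted differences from gland ran from 0.24 to 3.82 for Krt25, from 0.02 to 1.24 for Krt27 and from -0.37 to 0.70 for Krt71. The SEs ran from 0.68 to 2.39, and the adjusted p from 0.304 to 0.993. In the masses all 3 differences were negative once the array titled C57ms-7 was left out (Krt25 -1.08, Krt27 -1.19 and Krt71 -0.55). In the ventral tumours those of Krt27 (-0.38) and Krt71 (-0.16) were negative without replicate 2.

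Foxn1, the nude gene, did not pass the test in any group, though all arrays of 3 groups lay above every gland. The masses had 6.32 and 6.50, triple Bcat breast 7.14, 5.98 and 5.58, and the ventral tumours 6.62, 6.0 and 5.44. The glands had 4.72, 2.91, 3.38 and 3.47. Those 3 groups hold 8 arrays in all. The share of all genes with every array of a group above every gland was not counted, here or for Padi3, Tchh and Dlx3. These separations are therefore a description only. The differences were 2.82 in the masses (SE 1.21, adjusted p = 0.160), 2.73 in triple Bcat breast (SE 1.12, adjusted p = 0.137) and 2.43 in the ventral tumours (SE 1.25, adjusted p = 0.296), and none passed. In quadruple breast Foxn1 ran from 3.21 through 5.52 to 8.43, with 11 of 19 arrays above every gland (difference 1.59, adjusted p = 0.168), and in triple K5Cre breast from 3.03 through 4.45 to 6.38, with 4 of 8 above. In fits of the compared groups alone, Foxn1 passed in the masses, the ventral tumours and triple Bcat breast, where 20.2%, 14.3% and 11.2% of all genes passed.

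Hoxc13, which switches on hair keratin genes in the matrix, was low in most quadruple arrays and very high in 3. It ran from 4.55 through 5.28 to 10.42 there, and the top 3 arrays, Q535, Q648-2 and Q552, had 10.42, 9.89 and 9.74. The next value on any array was 7.83. The masses had 5.69 and 7.78, the ventral tumours 6.09, 7.83 and 6.22, and triple Bcat breast 6.36, 5.98 and 7.07, against 6.75, 4.71, 4.58 and 4.45 in the glands. Triple K5Cre breast ran from 4.29 through 4.89 to 7.42, and its difference from gland was within rounding of 0. The other differences lay between 0.86 and 1.55, with adjusted p from 0.554 to 0.621.

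Dlx3, a homeobox gene of the matrix and of the upper epidermis, was above every gland in all triple Bcat arrays (8.15, 7.16 and 7.36) and all ventral tumours (8.35, 7.14 and 6.91), against gland values of 6.76, 5.26, 4.78 and 5.15. It was above every gland in 12 of 19 quadruple arrays, 4 of 8 triple K5Cre arrays and 1 of the 2 masses (6.75 and 7.67). Its differences lay between 1.29 and 2.08, with adjusted p from 0.165 to 0.479. Msx2, a homeobox gene downstream of Bmp signals, did not follow the others. Its gland values of 7.36, 5.84, 8.45 and 7.49 spanned the triple Bcat (6.80, 7.41 and 8.02) and ventral tumour values (6.56, 7.44 and 6.74) entirely. Its fitted difference was negative in 4 of the 5 comparisons, between -0.71 and 0.08, and no adjusted p was below 0.776. In triple K5Cre breast 3 of 8 arrays exceeded every gland, with a highest value of 10.19.

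Edar, the receptor, had its lowest means in the masses and ventral tumours, as Msx2 did. Its mean was highest in triple K5Cre (7.07 ± 1.80, SD, n = 8) and quadruple breast (7.0 ± 1.01, n = 19), then triple Bcat breast (6.89 ± 0.85, n = 3), and lowest in the masses (5.61 ± 0.54, n = 2) and ventral tumours (5.37 ± 0.35, n = 3), with the glands between them (6.25 ± 0.61, n = 4). Ranges of neighbouring groups overlapped throughout. The masses had 5.23 and 5.99 and the ventral tumours 5.74, 5.32 and 5.05, against gland values of 7.03, 5.82, 5.71 and 6.42. None of these differences passed: 0.70 in triple K5Cre, 0.67 in quadruple breast, -0.77 in the masses and -1.01 in the ventral tumours, with adjusted p from 0.498 to 0.709. Of 11 measured genes of the ectodysplasin pathway, 1 passed in 3 of the 5 comparisons. This was Eda, the ligand of Edar, at 4.74 ± 0.13 in the masses (SD, n = 2), 5.0 ± 0.22 in quadruple breast (n = 19) and 4.86 ± 0.19 in triple K5Cre breast (n = 8), against 5.44 ± 0.08 in the glands (n = 4). Its differences were -0.69 (adjusted p = 0.0229), -0.42 (0.0141) and -0.57 (0.00132). The median difference of the 11 genes lay between 0.13 and 0.28.

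Quadruple breast was set against each of the other breast and tumour groups to see what the combination of all 4 elements shows. None of the 10 genes passed against triple K5Cre breast, where 0.00% of all genes passed, or triple Bcat breast (0.0330%), masses (0.214%, with 0.0385% higher and 0.176% lower) or ventral tumours (0.143%, with 0.0110% higher and 0.132% lower). At an unadjusted p under 0.05 the counts in limma were 0 of 10 against triple K5Cre (4.46% of all genes) and triple Bcat breast (8.39%), and 1 of 10 against the masses (8.09%) and the ventral tumours (9.43%). The 1 was Padi3, at -2.92 against the masses (SE 1.17, adjusted p = 0.477) and -2.56 against the ventral tumours (SE 1.23, adjusted p = 0.521). The median of the 10 differences was 0.48 against triple K5Cre and -0.74, -0.70 and -0.59 against the other 3. Positive differences numbered 8 of 10 against triple K5Cre, and 1, 2 and 2 against the others. Tchh differed by -2.58 from triple Bcat breast (adjusted p = 0.635) and by -3.06 from the ventral tumours (adjusted p = 0.609). Edar went the other way, with 1.44 against the masses (adjusted p = 0.694) and 1.68 against the ventral tumours (95% interval -0.07 to 3.42, adjusted p = 0.542).

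The structural genes ranged widely between arrays of the 2 largest groups. The mean of the 5 structural genes ran from 4.54 to 11.38 within quadruple breast (SD 1.86, n = 19). Within triple K5Cre breast it ran from 4.53 to 8.58 (SD 1.43, n = 8). The group means lay between 5.78 and 8.37 and the gland mean at 5.39, but averages spread less than single arrays in any case. One quadruple array, Q648-2, had the highest value of all 39 arrays in Tchh (12.82), Krt71 (10.96), Krt25 (12.82) and Krt27 (11.05), and 9 of the 10 genes were among their top 5 there. Without it the quadruple difference of Krt71 from gland was -0.03. Q535 had the highest Hoxc13 (10.42), Foxn1 (8.43) and Msx2 (10.58), and T817 of triple K5Cre breast had the highest Dlx3 (9.78) and Edar (9.92). The low end was shared by arrays of several groups. T627 had 9 of the 10 genes among their lowest 8 values, Q2164 had 8, and the glands MGT627, MGQ440 and MGT635 had 9, 6 and 6.

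**Figure D2:**
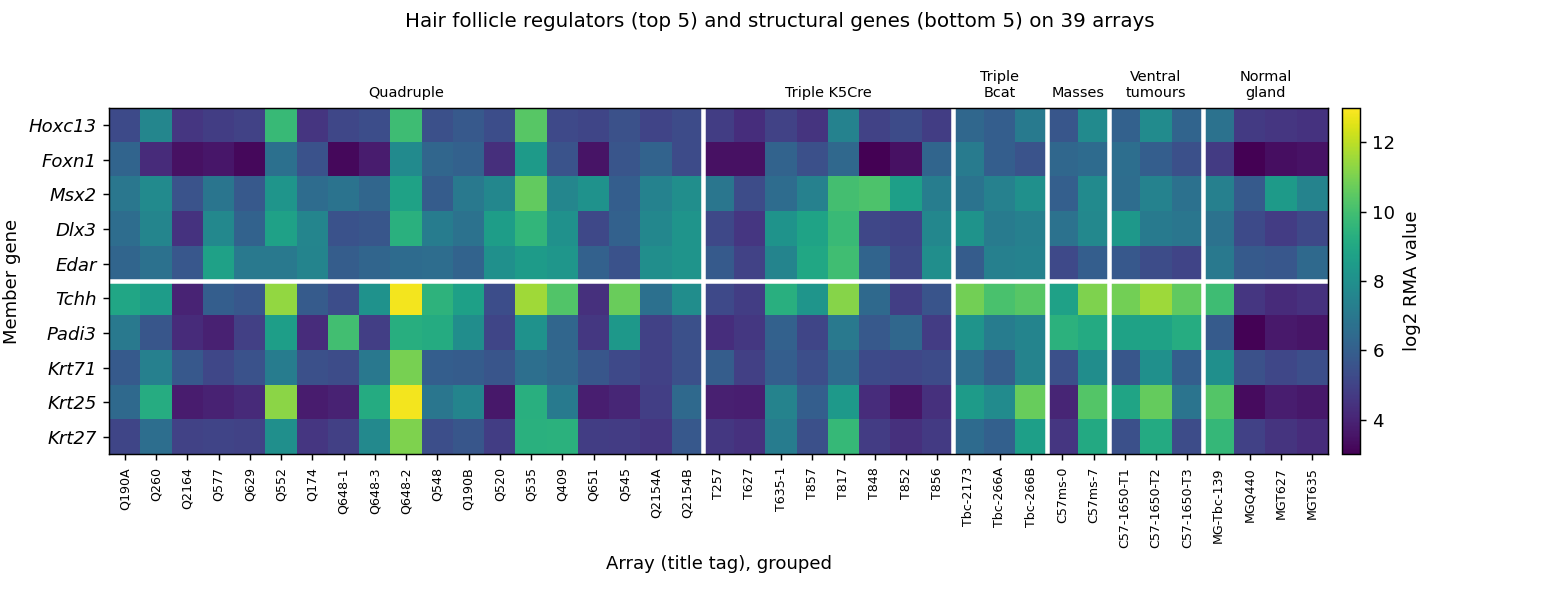
Log2 value of each gene (rows, regulators above the white line and structural genes below it) on each of the 39 arrays (columns, by group, with normal gland at the right). Q648-2, Q535, Q552 and T817 are bright in most rows, and the gland MG-Tbc-139 is bright in Tchh, Krt25 and Krt27, unlike the 3 glands to its right.

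Arrays of 1 animal could span much of the range seen across animals. Animal Q648 gave 3 arrays, with Krt25 at 3.95, 9.16 and 12.82, Tchh at 5.35, 8.11 and 12.82 and Padi3 at 9.96, 4.85 and 9.27 in Q648-1, Q648-3 and Q648-2. The array highest in Padi3 of all 39, Q648-1, was thus near the floor for Krt25. The structural mean ranged over 5.49 log2 units within this animal. The other animals with several arrays had ranges of 2.02 (the ventral tumours), 1.51 (Tbc-266), 1.00 (Q2154) and 0.48 (Q190). The 3 regulators Hoxc13, Foxn1 and Dlx3 also ranged widely in Q648, by 4.76, 4.54 and 3.81, and Edar by 0.54.

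Structural and skin surface genes parted on several arrays. Of the arrays with a high epidermal mean, Q2154A (11.04), T856 (11.46) and Q174 (10.79) had structural means of 5.21, 4.95 and 4.79. Q535, Tbc-266B and MG-Tbc-139 had structural means of 9.0, 8.94 and 8.75 with epidermal means of 8.64, 8.38 and 7.43. The quadruple arrays Q648-3 and Q260 had structural means of 7.37 and 7.47 with epidermal means of 5.24 and 6.36. High structural and high epidermal means met in Q648-2 (11.38 and 12.12), ventral tumour replicate 2 (9.61 and 11.25) and C57ms-7 (9.50 and 11.55).

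**Figure D3:**
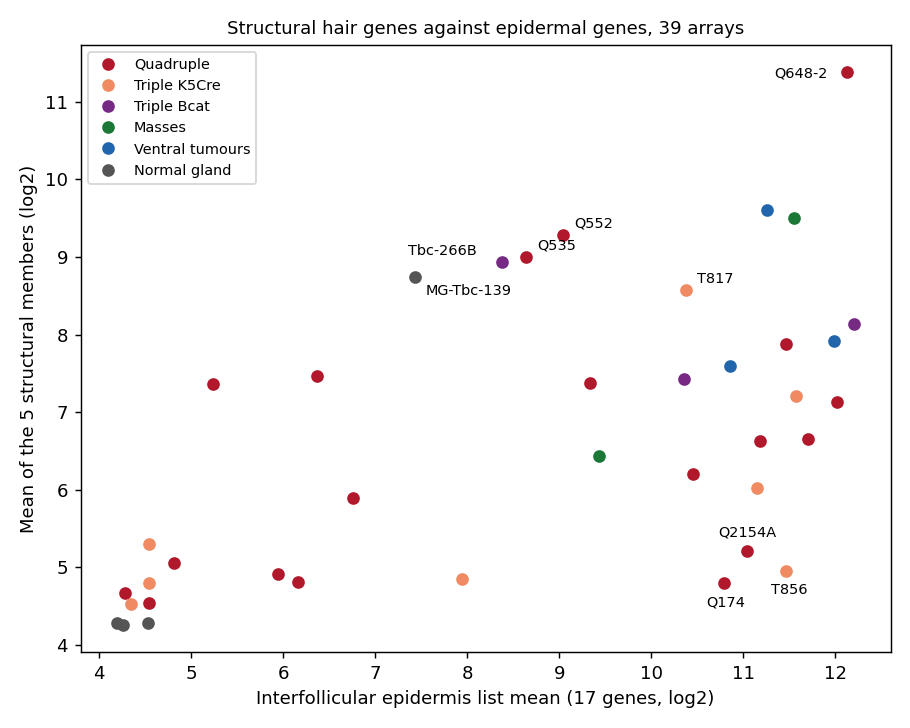
Mean log2 value of the 5 structural hair genes (vertical) against the mean of 17 genes of interfollicular epidermis (horizontal), 1 point per array, coloured by group. The lower right holds arrays with epidermal genes near 11 and structural means near 5 (Q2154A, T856 and Q174), and the gland MG-Tbc-139 lies far above the other 3 glands, which sit together at the lower left.

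Likeness to the hair genes was measured as Pearson's r over the 39 arrays, and again over the 38 without MG-Tbc-139, as a description. The arrays include several from single animals and share tissue composition. The mean of the structural genes was most like Krt73 (0.90) and Krt28 (0.89), both inner root sheath keratins, Prr9 (0.88) and Mt4 (0.87), a metallothionein of stratified epithelium. Next came Tchhl1, a relative of trichohyalin (0.84), the hair keratin Krt35 (0.83), the sheath keratin Krt26 (0.83) and the hair keratin Krt84 (0.79). Hoxc13 was most like 3 hair keratins, Krt84 (0.94), Krt35 (0.92) and Krt36 (0.89). As Hoxc13 was very high on only 3 arrays, ranks were read too, and Spearman's rho was 0.83, 0.72 and 0.73. Foxn1 was most like Pinlyp (0.93) and the desmogleins Dsg1b (0.93) and Dsg1a (0.91). Msx2 was most like its relative Msx1 (0.86), Rassf9 (0.74) and Crym (0.72). Dlx3 was most like Rasgef1b (0.91), the signalling protein gene Bmp7 (0.88) and Kcnmb4 (0.87). Edar was most like Tex36 (0.92), the stem cell receptor gene Lgr6 (0.91) and the metalloprotease gene Adamts20 (0.90). Every r was within 0.03 of its value without MG-Tbc-139.

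Other genes of the follicle were read from lists of its layers. Of 12 hair shaft keratins and 38 keratin-associated protein genes, 0 passed against gland in any of the 5 groups. Their means followed the same few arrays. The shaft keratin mean ran from 4.24 through 4.61 to 11.58 (Q535) in quadruple breast and from 4.19 through 4.39 to 8.08 (T817) in triple K5Cre breast, and stood at 4.57 and 7.16 in the masses and 4.62, 8.49 and 5.04 in the ventral tumours, against 7.38 (MG-Tbc-139), 4.53, 4.5 and 4.36 in the glands. Of 13 inner root sheath and companion layer genes, 0 were higher and 1, the elastase gene Cela1, was lower in quadruple (-2.40, SE 0.49, adjusted p = 0.000548), triple K5Cre (-2.55, SE 0.50) and mass samples (-2.38, SE 0.76). The medians of those 13 differences lay between 0.19 and 0.90. Of 17 other shaft and matrix genes, Prdm1, a repressor active in the dermal papilla and in epidermal differentiation, was higher in triple Bcat (3.18, SE 0.91, adjusted p = 0.0260), triple K5Cre (1.92, SE 0.64) and quadruple breast (1.81, SE 0.62). Selenbp1 was lower in triple K5Cre (-2.85, SE 0.67) and quadruple breast (-2.26, SE 0.65). Of 8 sebaceous gland genes, Krt79 was higher in quadruple (3.95, SE 1.30) and triple K5Cre breast (3.89, SE 1.34). In the same list Pparg was lower in every group (-4.93 to -3.81) and Mogat1 in all but the masses (-2.94 to -2.74). Adipocyte genes were lower in every group too, with 7 to 9 of 10 passing. The part of fat in the Pparg and Mogat1 differences was not tested. Of 12 stem cell and outer sheath genes, the frizzled receptor gene Fzd6 was higher in quadruple breast (0.69, SE 0.22) and the masses (1.26, SE 0.35), and Cd34, also a marker of vessels and fibroblasts, was lower in quadruple (-1.74, SE 0.38) and triple K5Cre breast (-1.62, SE 0.39).

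No gene of the dermal papilla or pigment cell lists passed as higher against gland except Inhba, an activin subunit gene, in triple K5Cre breast. Inhba was at 8.24 ± 0.85 there (SD, n = 8), against 6.69 ± 0.68 in the glands (n = 4, adjusted p = 0.0286). None of the 10 hair genes passed in that comparison. Of 13 dermal papilla genes the growth factor gene Fgf10, which mammary stroma also makes, was lower in all 5 groups (-2.66 to -2.26). The leptin receptor gene Lepr (-2.03 and -2.13) and Hhip, a hedgehog antagonist gene (-0.35 and -0.41), were lower in quadruple and triple K5Cre breast. Hhip was low throughout, with means of 3.31 and 3.22 in these groups. Among the glands it was 4.36 in MG-Tbc-139 and 3.27 to 3.61 in the others, so its difference leans on that gland. Of 10 melanocyte genes Mlana was lower in 4 of the 5 (-1.29 to -1.05) and the list mean stayed between 4.77 and 5.97 on all 39 arrays. In the array highest in hair keratins, Q535, the melanocyte mean was 5.89, against 5.73 to 5.85 in the glands.

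The gland titled MG-Tbc-139 stood apart from the other 3 and is the only gland of a triple Bcat animal, so its genotype and this 1 array cannot be told apart, and genotypes were not compared. It was above all 3 others in 9 of the 10 genes, by more than 1 log2 unit in 8. Among all 18194 genes, 23.4% were above the other 3 glands and 2.10% by more than 1 unit. Krt25 had 10.34 in it, against 3.30 to 3.78 in the others, Tchh 9.89 against 4.24 to 4.59, and Krt27 9.65 against 4.28 to 4.94. Krt71 had 7.98 against 5.13 to 5.49, Padi3 5.88 against 3.07 to 3.70, and Hoxc13 6.75 against 4.45 to 4.71. Msx2 was the exception, at 7.36 against 5.84 to 8.45. Of 39 arrays it ranked 3 in Krt71 and in Krt27 and 6 in Krt25, and it was the highest in none of the 10 genes.

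**Figure D4:**
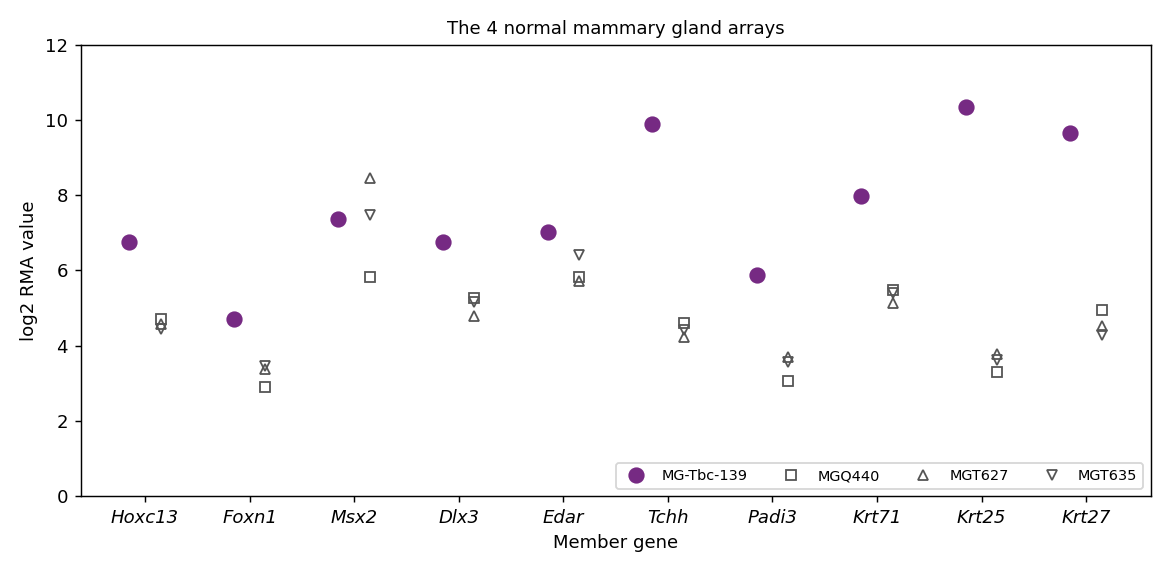
Log2 values of the 10 genes in the 4 normal mammary glands, with MG-Tbc-139 as filled circles at the left of each gene and the other 3 as open symbols. MG-Tbc-139 lies above the others in every gene except Msx2, by up to 6.55 log2 units in Krt25.

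The same gland was high in other hair and skin genes. It was over 1 log2 unit above the other 3 in 11 of 12 hair shaft keratins, 26 of 38 keratin-associated protein genes, 15 of 17 epidermal genes, 10 of 17 other shaft and matrix genes and 5 of 13 inner root sheath genes. It was so too in 4 of 8 basal epithelial, 5 of 12 stem cell and outer sheath, 3 of 8 sebaceous and 2 of 9 immune cell genes. It was so in 0 of 13 luminal, 0 of 10 skeletal muscle and 0 of 10 melanocyte genes and in 1 of 10 adipocyte genes. Its epidermal mean was 7.43, against 4.20 to 4.54 in the other glands, and its luminal mean 9.93, against 11.23 to 11.70. Its adipocyte mean of 11.99 lay within the range of the others (11.71 to 12.16). The 10 genes by which it most exceeded the other 38 arrays were not hair genes. They were led by Myl2, a myosin light chain of heart and slow muscle, at 9.22 against 4.23 to 6.36 in the other glands and at most 6.74 on any array. The others were Mrgprb1, Myrip, Gsg1l, Lrrn3, Rbm46, Fcer1a, Smoc2, Sfrp5 and Myl3. Fcer1a encodes a chain of the IgE receptor of mast cells, and Sfrp5 a secreted Wnt antagonist. The part of skin in this gland sample was not tested.

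**Figure D5:**
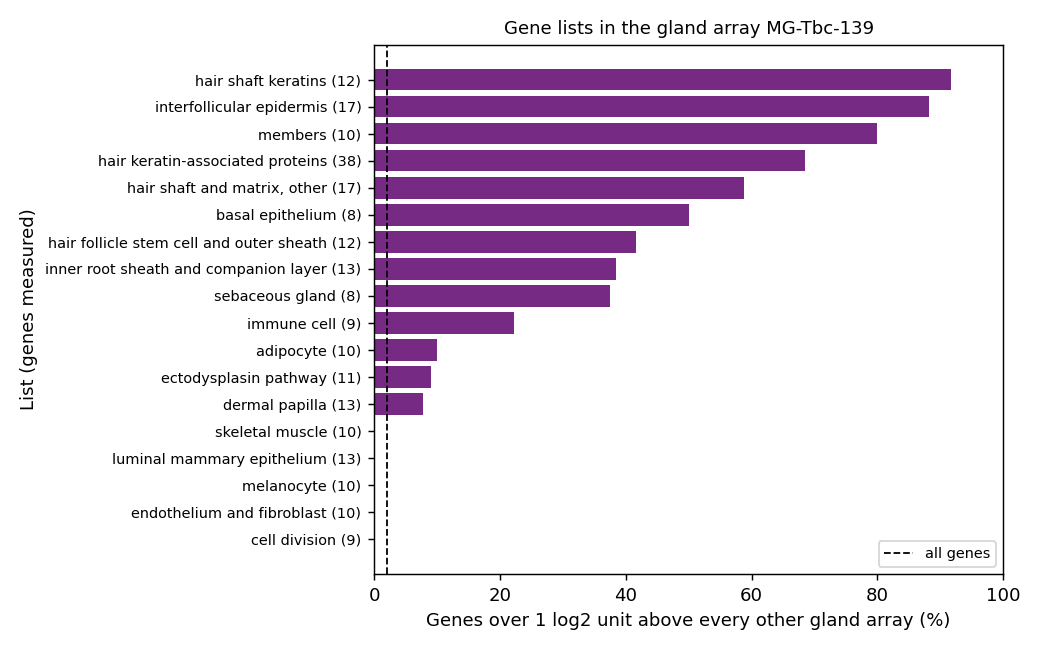
Percent of the measured genes of each list (horizontal) that were over 1 log2 unit higher in MG-Tbc-139 than in every other gland, with the share of all genes (2.10%) as a dashed line. Hair shaft keratins, epidermal genes and the 10 members lead, and 5 lists at the foot are at 0.

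The gland MG-Tbc-139 was above the other glands in 9 of these same 10 genes and is the only gland of a triple Bcat animal. Leaving it out thus raises most differences by itself, so larger values without it add no support. Because it raises both the gland mean and its spread, the differences were also read without it. The median of the 10 differences was then 1.76 in quadruple, 1.30 in triple K5Cre and 2.47 in triple Bcat breast, 2.17 in the masses and 2.21 in the ventral tumours. Positive differences numbered 9, 9, 9, 8 and 8 of 10. Padi3 alone passed, in all but triple K5Cre breast, where 2655 of all genes passed. The share of all genes that passed was 12.4% in quadruple and 6.44% in triple Bcat breast, 6.48% in the masses and 3.77% in the ventral tumours.

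Breast and gland of the same animal were measured in 2 triple K5Cre mice. In T635 the structural mean was 7.21 in breast and 4.26 in gland, with Tchh at 9.29 against 4.43 and Krt25 at 7.46 against 3.63. In T627 it was 4.53 in breast and 4.27 in gland, with Tchh at 4.83 against 4.24 and Krt25 at 3.82 against 3.78. The structural mean was thus higher in breast by 2.95 in T635 and by 0.25 in T627. Msx2 had a lower value in breast in both, at 6.55 against 7.49 in T635 and 5.34 against 8.45 in T627. In the paired fit of these 4 arrays in limma, 0 of all genes passed, the 10 among them, and at an unadjusted p under 0.05 1 of the 10 and 14.8% of all genes did.

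Dlx3, Edar, Foxn1 and Msx2 each had a second, dimmer probe set among the 14 of the 10 genes. Over the 39 arrays its r with the brighter one was 0.67 for Dlx3, 0.82 for Foxn1, 0.43 for Msx2 and -0.47 for Edar. The second Edar probe set lay between 1.87 and 2.32 on all arrays and the second Msx2 probe set between 2.51 and 3.53, so they carried little signal. The second Foxn1 probe set ran from 3.81 to 6.18.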

How the data were processed

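Total RNA of 39 mouse tissues was labelled for Affymetrix 3' arrays, per the labels' protocols. The authors deposited log2 values of 45101 probe sets, made with RMA per the submitters' processing notes; no version is stated. RMA corrects background and equalises the arrays, and no detection call accompanies a low value. Genes come from the platform annotation, updated through a RefSeq table (GRCm38.p6): 34958 carried 1 gene, 932 several and 9211 none, leaving 18194 genes, 1 probe set each (cross-hybridising probe sets only for 100 genes without another). Promoters are RefSeq's.

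Samples were grouped by genotype and tissue labels, and animals were read from the titles. All arrays entered a limma fit with a mean per group, the animal as a random block (consensus correlation 0.329) and eBayes with an intensity trend, so a fitted difference need not equal the difference of means. Calls used a Benjamini-Hochberg adjusted p under 0.05 over all genes in each of 9 comparisons. Nothing says that arrays of different titles are independent beyond the animal, so p-values measure the spread between these samples. The fit was tested on simulated data. The fits ran in limma 3.58.1 under R 4.3.3, and summaries in Python 3.11.15 with pandas 2.3.3 and numpy 2.4.6.

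The 10 genes, the lists of follicle layers and other tissues, and the alternatives were chosen with earlier results of these data known. Besides the members, the text names up to 3 called genes per list and direction, the 8 genes most like the structural mean, the 3 most like each regulator, and the 10 genes that most exceed all other arrays in MG-Tbc-139. Genes of other tissues used as checks (Krt5, Krt8) and the second probe sets were named after their values were seen. The alternatives were no block, animal means, the compared groups alone, the mean of all probe sets, genes with a mean under 5.23 left out, cyclic loess, eBayes without trend, a paired fit and leaving out each array of groups of 2 to 4. Leaving out T627 of triple K5Cre and Q648-2 of quadruple breast was chosen after seeing the data. Fits of triple Bcat or ventral tumours with gland alone took the correlation of the full fit. The table left 0 columns unused.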

Additional observations from a re-analysis of the deposited data

Results flagged for a closer look

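In groups of 4 to 10 arrays, Dixon's test at the 95% level asked whether the highest or the lowest array stood apart from the rest, for the 10 genes in triple K5Cre breast and in normal gland. Of 20 gene and group combinations 6 stood apart. Chance alone flags about 1 in 20 groups when values are independent, but 5 of the 6 come from 1 array that had drawn attention before, so the count is a description.

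In triple K5Cre breast the array titled T817 had a Hoxc13 value of 7.42, against 4.29 to 5.29 in the other 7 arrays. The same array held the highest Dlx3 and Edar of all 39.

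In normal gland the array titled MG-Tbc-139 stood above the other 3 in 5 genes. Its Hoxc13 was 6.75 against 4.45 to 4.71, its Tchh 9.89 against 4.24 to 4.59 and its Krt71 7.98 against 5.13 to 5.49. Its Krt25 was 10.34 against 3.30 to 3.78 and its Krt27 9.65 against 4.28 to 4.94. These 5 values belong to 1 array and are not independent of each other.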

How the results depend on the processing

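The number of the 10 genes called moved under 8 of 14 alternatives in the ventral tumours and 3 of 13 in the masses. In fits of the compared groups alone it was 2 in the masses, where 20.2% of all genes passed, 2 in the ventral tumours (14.3%, Foxn1 and Padi3 in both) and 3 in triple Bcat breast (11.2%, Foxn1, Dlx3 and Padi3). It was 1 in quadruple breast with no block (Padi3), where 15.8% of all genes passed. The count fell in the ventral tumours with animal means, which leave 1 value in that group. Leaving out 1 array gave 0 to 1 in the ventral tumours (1.43% to 3.77% of all genes), triple Bcat breast (2.09% to 7.03%) and quadruple breast (9.18% to 15.6%). In the masses, leaving out 1 gland gave 1 (4.09% to 6.48% of all genes), and leaving out a mass lost the call. Over all alternatives 15 counts moved and 92 did not, 76 of these being 0 in both fits. The cause was not tested.

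Differences close to 0 changed sign. Against gland in triple K5Cre breast, Hoxc13 was 0.013 with animal means and with no block, 0.045 with cyclic loess and 0.024 with the groups alone. Krt25 was -0.034 with animal means and with no block and -0.083 with the groups alone, and Krt27 -0.19, -0.19 and -0.23. Msx2 in triple Bcat breast was 0.13 with no block and 0.069 with the groups alone. In the paired fit with the animal as a fixed replicate block, which used the 2 animals with both tissues and called 0 of all genes, Hoxc13 was 0.12, Krt71 0.20 and Msx2 -2.02, and 7 other differences kept their sign.

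Leaving out 1 array moved the differences from gland over these ranges where a sign changed. In triple K5Cre breast they were -0.26 to 0.45 for Hoxc13, -0.59 to 1.74 for Krt25, -0.72 to 1.14 for Krt27, -0.64 to 0.21 for Krt71 and -0.46 to 0.66 for Msx2. In the masses they were -1.08 to 5.22 for Krt25, -1.19 to 3.31 for Krt27, -0.55 to 1.90 for Krt71 and -1.60 to 0.16 for Msx2. In quadruple breast they were -0.34 to 1.58 for Krt27, -0.14 to 0.75 for Krt71 and -0.97 to 0.16 for Msx2. In the ventral tumours they were -0.38 to 2.10 for Krt27 and -0.16 to 1.20 for Krt71, and in triple Bcat breast -0.86 to 0.25 for Msx2. The gland rests on 4 arrays and the smallest groups on 2 or 3, and leaving out genes with a mean under 5.23 left no value for Foxn1.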
